A study of Mus musculus with 6 samples.

Results

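Scin, Cox6a2, Ly6a and Plac8 are 4 genes of 21881 in the deposited tables, chosen by the deposited expression levels: each was higher with CBD and lower with 4-hydroxytamoxifen (4-OHT) than the control of the same table. RNA-seq was done on mouse leukemia cells, of strain C57/B6X129SV, driven by AE9a, a truncated AML1-ETO fusion protein. Per the design text, every group, the controls too, carries Id1 fl/fl (loxP sites around Id1) together with CreER, through which 4-OHT can delete Id1. The same text calls CBD an Id1 inhibitor, and the abbreviation is left there unexplained. The 6 samples form 3 groups of 2. One was the control, one received 15 µM CBD over 16 h, and one received 0.1 µM 4-OHT over 48 h. Labels name no vehicle, no driver of CreER and no 4-OHT arm without loxP sites. They do not say whether a group's samples were separate cultures, so any spread between samples may be technical. Which spread the authors' p-values measure is not known, since the number of control samples behind them is not stated.

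The genes encode unrelated proteins. Scin encodes scinderin, also called adseverin, a calcium-dependent protein of the gelsolin superfamily that severs and caps actin filaments and is known from secretory cells and megakaryocytes. Cox6a2 encodes the heart and skeletal muscle form of subunit VIa of cytochrome c oxidase, the last enzyme complex of the respiratory chain. Ly6a encodes Sca-1, a small surface protein held by a lipid anchor, used to mark mouse haematopoietic stem cells and inducible by interferon. Plac8 encodes a small cysteine-rich protein first described in placenta and also expressed in myeloid and lymphoid cells. Id1, which the design text ties to both treatments, encodes a helix-loop-helix protein that binds E proteins and keeps them off E-box DNA. AE9a keeps the RUNX DNA-binding domain of AML1.

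The promoter table from RefSeq (GRCm38.p6) matched 2 of the 4 genes, Scin and Plac8. The 250 bases before each annotated start are shown on the gene's strand, 5′ to 3′, because E-boxes and RUNX sites are the DNA letters tied to the 2 regulators above. Capitals mark matches to the E-box CANNTG or to the RUNX core TGTGGT, which reads ACCACA on the other strand. The 3 stretches are Scin at chr12:40134229-40134478, Plac8 start 1 at chr5:100572206-100572455 and Plac8 start 2 at chr5:100563097-100563346, all on the minus strand.
Scin: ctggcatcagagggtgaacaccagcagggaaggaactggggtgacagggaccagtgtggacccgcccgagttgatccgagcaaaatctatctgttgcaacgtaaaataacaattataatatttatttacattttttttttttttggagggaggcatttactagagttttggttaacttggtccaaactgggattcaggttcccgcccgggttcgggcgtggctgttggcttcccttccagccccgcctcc
Plac8 start 1: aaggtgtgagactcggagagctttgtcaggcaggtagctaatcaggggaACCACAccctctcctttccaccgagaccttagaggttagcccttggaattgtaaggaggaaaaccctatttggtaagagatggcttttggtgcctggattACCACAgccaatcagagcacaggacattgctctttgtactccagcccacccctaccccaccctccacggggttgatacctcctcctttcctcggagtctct
Plac8 start 2: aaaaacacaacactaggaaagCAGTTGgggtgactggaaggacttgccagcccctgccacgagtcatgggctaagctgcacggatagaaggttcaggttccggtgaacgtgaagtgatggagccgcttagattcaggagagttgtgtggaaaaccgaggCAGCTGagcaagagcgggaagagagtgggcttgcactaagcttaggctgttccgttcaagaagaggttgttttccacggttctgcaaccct

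Plac8 start 1 holds 2 RUNX cores, 201 to 196 and 101 to 96 bases before the start, and no E-box. Plac8 start 2 holds 2 E-boxes, 229 to 224 and 91 to 86 bases before the start, and no RUNX core. The Scin stretch holds neither set of letters. Over all 32851 promoters of the table, searched the same way on both strands, 66.2% hold an E-box and 31.8% hold 2 or more, while 14% hold a RUNX core and 1.27% hold 2 or more. The E-box and RUNX matches do not overlap each other. These matches describe letters only, and which of the Plac8 starts the cells use was not examined.

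Levels are the authors' FPKM (fragments scaled by transcript length and mapped total), with 1 value per group. Depth and the spread over samples are therefore unknown, and no SD or interval stands beside a value. Each table has its own control column, the controls differ between tables, and the sample descriptions tie 1 control sample to each table. How many control libraries stand behind a column is not stated, and with 1 each the authors' tests would rest on a single control. Scin was at 8.17 FPKM in the control of the CBD table, 125 with CBD, 8.58 in the control of the 4-OHT table and 2.61 with 4-OHT. Its control columns were nearly level, with CBD far above and 4-OHT below both. Ly6a was at 2.24, 21.2, 5.65 and 1.55 FPKM in the same order of columns. The CBD value of this stem cell marker was again the highest and the 4-OHT value the lowest, with the 2 controls apart.

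Cox6a2 was at 12.1 FPKM in the control of the CBD table, 56.2 with CBD, 1.93 in the control of the 4-OHT table and 0.531 with 4-OHT. For this muscle-type oxidase subunit both columns of the 4-OHT table lay under both columns of the CBD table. Plac8 was at 41.6, 189, 18.02 and 11.04 FPKM in that order, and it too had both columns of the 4-OHT table under both of the CBD table. Plac8 was the most abundant of the 4 in every column, per length. In these bulk samples, fewer cells of a type and less RNA per cell cannot be told apart.

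**Figure D1:**
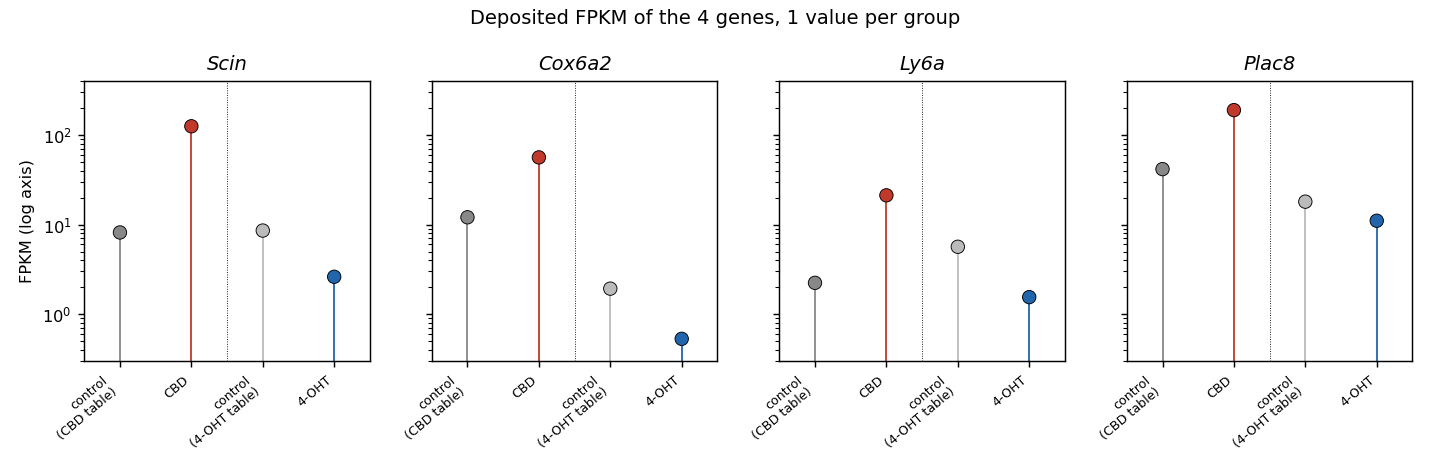
Deposited FPKM (log axis) of each gene in the control and CBD columns of one table and the control and 4-OHT columns of the other; each point is 1 group value and no error is known. In every panel the CBD point is the highest and the 4-OHT point the lowest, while the control points are level for Scin (8.17 and 8.58 FPKM) and apart for Cox6a2 (12.1 and 1.93 FPKM).

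Against their own controls the genes were 15.3-fold (Scin), 9.48-fold (Ly6a), 4.66-fold (Cox6a2) and 4.56-fold (Plac8) higher with CBD. Their own controls stood 3.28-fold (Scin), 3.65-fold (Ly6a), 3.63-fold (Cox6a2) and 1.63-fold (Plac8) above 4-OHT. These contrasts chose the genes, so the folds are a description. Folds are ratios of FPKM, while log2 differences use log2(FPKM + 0.1), which understates those of low genes. In the authors' deposited table for CBD, q was listed as 0 for Scin, 7.19e-06 for Ly6a, 6.93e-06 for Cox6a2 and 1.15e-14 for Plac8. In the authors' deposited table for 4-OHT, q was listed as 0 for Scin, 1.16e-09 for Ly6a, 0.00438 for Cox6a2 and 2.23e-06 for Plac8. A gene is said to be called, or to have risen or fallen, where the authors' deposited table lists q below 0.05. All 4 were called higher with CBD, as were 18.4% of 13751 tested genes, and all 4 lower with 4-OHT, as were 16.9% of 11232. Both calls together were made for 205 of 10867 genes tested in both tables (1.89%).

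Each treated column was also set against the control of the other table. The treated values are the ones that chose the genes, so these folds too are a description, with no test. With CBD, Scin was 14.6-fold, Cox6a2 29.1-fold, Plac8 10.5-fold and Ly6a 3.75-fold above that other control. The other control stood 22.7-fold above 4-OHT for Cox6a2, 3.77-fold for Plac8, 3.12-fold for Scin and 1.44-fold for Ly6a. All 4 genes had CBD above and 4-OHT below both controls, as did 86 of the 205 genes with both calls and 7.99% of all genes tested in both tables. Nothing is read from that share, since the 4 genes were picked for high CBD and low 4-OHT values. The actin-severing gene Scin changed least with the choice of control, at log2 differences of 3.92 and 3.85 with CBD and −1.68 and −1.61 with 4-OHT. Ly6a had the smallest remaining difference, a log2 of −0.50 between 4-OHT and the other control.

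The distance between the control columns gives the scale on which these values can be read. The higher control was 1.05-fold above the lower for Scin, 2.31-fold for Plac8, 2.53-fold for Ly6a and 6.26-fold for Cox6a2. For Plac8 and Cox6a2 this distance exceeded the fold between 4-OHT and its own control. For Cox6a2 it also exceeded the 4.66-fold difference with CBD. Over 9481 genes tested in both tables and at 1 FPKM or more in both controls, the median absolute log2 difference between controls was 0.351, and 8.98% differed by at least 2-fold. A distance as large as that of Cox6a2 was seen in 0.401% of these genes, as large as that of Ly6a in 4.49%, of Plac8 in 5.58% and of Scin in 88.5%. The direction differed among the genes: Ly6a was higher in the control of the 4-OHT table, Cox6a2 and Plac8 in that of the CBD table.

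**Figure D2:**
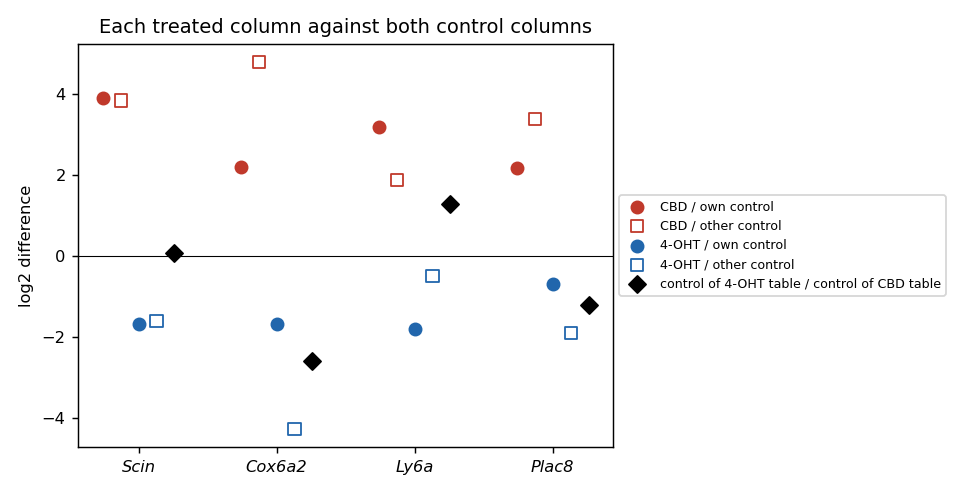
Log2 differences of log2(FPKM + 0.1) for each gene: CBD (red) and 4-OHT (blue) over their own control (filled circles) and over the other table's control (open squares), and one control over the other (black diamonds). All CBD points lie above 0 and all 4-OHT points below, and the control difference ranges from 0.07 for Scin to −2.58 for Cox6a2.

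Ordered by the smaller of the 2 absolute log2 folds, Ly6a, Cox6a2 and Scin ranked 3, 4 and 5 of the 205 genes, at 1.80, 1.68 and 1.68. Plac8 ranked 35, at 0.70, between Lilrb4, an inhibitory immunoglobulin-like receptor gene, and Tnfrsf9, which encodes the costimulatory receptor 4-1BB. Above them stood Lrrn3, a leucine-rich repeat protein of neurons, and the basophil protease gene Mcpt8. Lrrn3 was at 0.0188, 1.23, 1.66 and 0.273 FPKM, so its CBD value did not exceed the control of the 4-OHT table. Mcpt8, at 1.85, 30.8, 3.798 and 0.842 FPKM, kept both directions against both controls. At the edge of the q threshold, the interferon receptor gene Ifnar2 was just inside, at 28.9, 46.0, 29.4 and 25.7 FPKM. Txndc15, which encodes a thioredoxin-domain protein, was just outside at 15.0, 28.0, 22.1 and 19.0 FPKM.

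**Figure D3:**
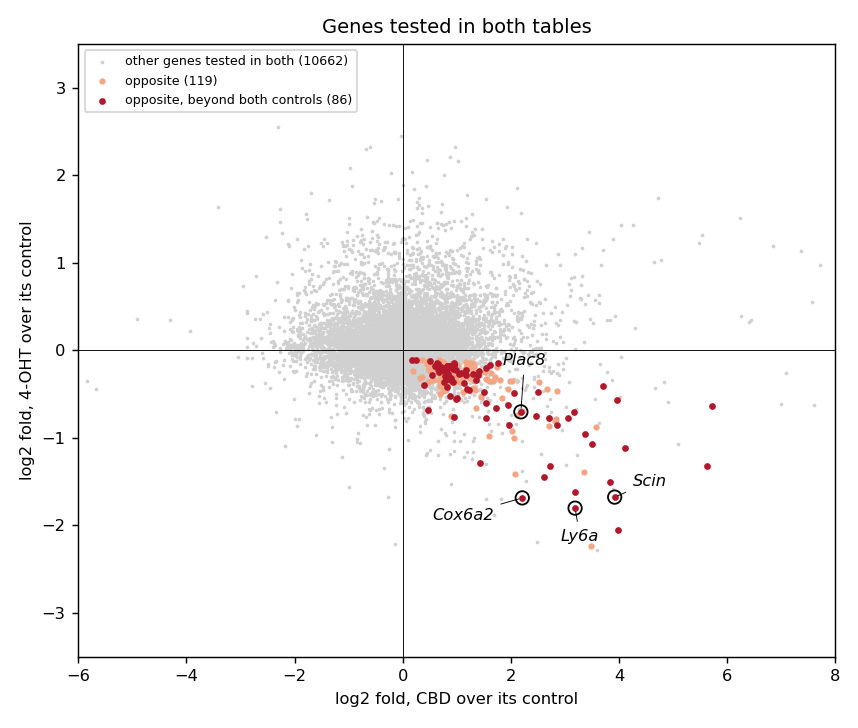
Log2 fold of CBD over its control (x) against that of 4-OHT over its control (y) for genes tested in both tables; coloured points are the 205 genes called higher with CBD and lower with 4-OHT, dark red for the 86 that kept both directions against both controls, and 43 grey points lie outside the axes. Scin, Ly6a and Cox6a2 lie near the lower edge of the coloured points, while Plac8 lies at −0.70 on the y axis.

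Scin belongs to a family of actin-binding proteins, and none of its tested relatives was called lower with 4-OHT. Of the 6 other tested members of the gelsolin superfamily, 3 rose and 2 fell with CBD (18.4% and 7.74% of all tested genes). With 4-OHT, 4 of the 6 rose, and none fell, against 27.2% and 16.9% of all. Their median log2 folds were 0.77 and 0.34, against 0.29 and 0.05 for all tested genes. Gelsolin itself (Gsn) was at 29.6, 89.9, 8.16 and 8.21 FPKM in the order used above. Avil, which encodes advillin, was at 14.7, 47.7, 2.45 and 2.71 FPKM, and Capg, the macrophage capping protein gene, at 75.1, 186, 36.5 and 53.02. These 3 rose with CBD, and the control columns of all 3 differed by over 2-fold. Flii and Svil, a flightless and a supervillin gene, fell with CBD, from 55.1 to 33.4 and from 4.38 to 1.19 FPKM, and rose with 4-OHT, from 39.7 to 47.9 and from 4.69 to 6.21. Vill, a villin-like gene, rose with 4-OHT from 1.53 to 3.26 FPKM and was not called with CBD, at 5.12 FPKM beside a control of 4.32. Villin (Vil1) was under 1 FPKM throughout and untested. None of the 6 relatives at 1 FPKM or more had 4-OHT below both controls.

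Among 19 tested genes of actin severing and capping outside that family, 3 rose and 1 fell with CBD, near the shares of all tested genes (18.4% and 7.74%). Of 17 tested with 4-OHT, 9 rose and 1 fell, against 27.2% and 16.9% of all. The tropomodulin gene Tmod2 rose with CBD from 0.0130 to 7.50 FPKM and the cyclase-associated protein gene Cap2 from 0.206 to 2.86. Tmod1, a tropomodulin of red cells and muscle, fell with CBD from 23.4 to 7.87 FPKM and rose with 4-OHT from 10.5 to 17.3. Coro1a, the leukocyte coronin, rose with 4-OHT from 81.03 to 159 FPKM, and Gmfg, glia maturation factor gamma, from 9.36 to 15.8. In the control of the CBD table Coro1a was at 313 FPKM and Gmfg at 20.3. The 4-OHT values of Tmod1, Coro1a and Gmfg were thus below that other control. None of these genes was called in the directions of Scin in both tables, against 1.89% of all genes. Of 6 tested megakaryocyte and platelet markers, 1 rose and none fell with CBD: Itga2b, from 3.36 to 14.1 FPKM. With 4-OHT 1 rose and 1 fell. Their summed level was 92.3, 88.5, 145 and 148 FPKM in the 4 columns.

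Cox6a2 is 1 of 18 listed nuclear genes of cytochrome c oxidase, most of which are far more abundant. Its ubiquitous counterpart Cox6a1 was at 957, 1075, 955 and 951 FPKM in the 4 columns and passed neither test. Of the 15 other tested subunits, 1 rose with CBD and none fell (18.4% and 7.74% of all): Cox7c, from 279 to 455 FPKM. Of 13 tested with 4-OHT, 3 rose and none fell (27.2% and 16.9% of all): Cox4i1, from 586 to 656 FPKM, Cox6b1, from 610 to 689, and Cox7a2l, from 115 to 141. With 4-OHT Cox4i1 and Cox6b1 were above both controls, while Cox7a2l was below the 241 FPKM of the control of the CBD table. Median log2 folds of the other tested subunits were 0.41 with CBD and 0.05 with 4-OHT, beside 0.29 and 0.05 for all tested genes. Leaving out genes under 1 FPKM in either control, the CBD median was 0.036 for tested genes and 0.395 for the subunits, Cox6a2 included. With the median of genes of like length subtracted, the CBD median of the subunits and Cox6a2 went from 0.457 to 0.076.

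The testis form Cox6b2 was at 9.17, 6.19, 4.46 and 6.86 FPKM, and the muscle form Cox7a1 at 8.62, 10.4, 15.3 and 16.9 FPKM. Neither passed a test, and neither followed the order of Cox6a2. The remaining tested subunits at 1 FPKM or more, Cox5a, Cox5b, Cox6c, Cox7a2, Cox7b and Cox8a, were between 119 and 885 FPKM and passed neither test. With CBD the muscle form Cox8b reached 0.805 FPKM without passing the test, and its remaining columns hold 0. Of 8 tested striated muscle markers 1 rose with CBD and none fell (18.4% and 7.74% of all): Myh7, the slow myosin heavy chain gene, from 0.00430 to 0.321 FPKM. With 4-OHT 1 of 5 rose and none fell (27.2% and 16.9% of all): the myosin light chain gene Mylpf, from 7.27 to 10.3 FPKM. The sum of the list was 38.9, 43.9, 45.4 and 50.4 FPKM. Most of that sum is Acta1, at 21.5 to 23.8 FPKM, with Mylpf and Cox7a1, and the remaining 20 of 23 markers were under 1 FPKM in every column, with Myl3 listed at 0 in all 4.

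In the tables the Cox6a2 row carries a locus of chromosome 7 from 135317460 to 135349880 (mm9), which it shares with Itgad, an integrin gene. In GENCODE (GRCm38) the 2 genes lie on opposite strands and their exons overlap by 70 bases of the 680 of Cox6a2. Itgad was at no more than 0.0202 FPKM in any column and was untested. Whether counting used strand is not given in the sources used here.

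Ly6a lies in a cluster of related genes, of which 15 of 16 listed were in the tables and 10 to 13 were under 1 FPKM in each column. With CBD, 4 of the 6 other tested genes rose and 0 fell, against 18.4% and 7.74% of all, with a median log2 fold of 2.51. Ly6c1, a surface antigen of monocytes and endothelium, rose from 0.157 to 2.53 FPKM with CBD and fell from 0.794 to 0.242 with 4-OHT, and was thus called in the same directions as Ly6a. Its 4-OHT value was above the 0.157 FPKM of the other control. Ly6e, the most abundant of the cluster, rose with CBD from 319 to 554 FPKM, and in the 4-OHT table, where its test is marked as failed, it is listed at 278 and 305 FPKM.

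Lynx1 and Ly6h, cluster genes best known from neurons, rose with CBD from 0.0300 to 4.97 and from 0.161 to 5.42 FPKM. Reads can be shared within the cluster: of 1269 distinct stretches of 36 bases in coding transcripts of Ly6a (GENCODE), 365 (28.8%) also occur in transcripts of other genes, most of them in Ly6c1. The share was not computed for Ly6c1, which was lower than Ly6a in every column. The values of both genes, and the calls of Ly6c1, are thus uncertain to an unknown extent. The same share was 5.43% for Cox6a2, all in Itgad, 0.98% for Scin and 0 of 1384 for Plac8.

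**Figure D4:**
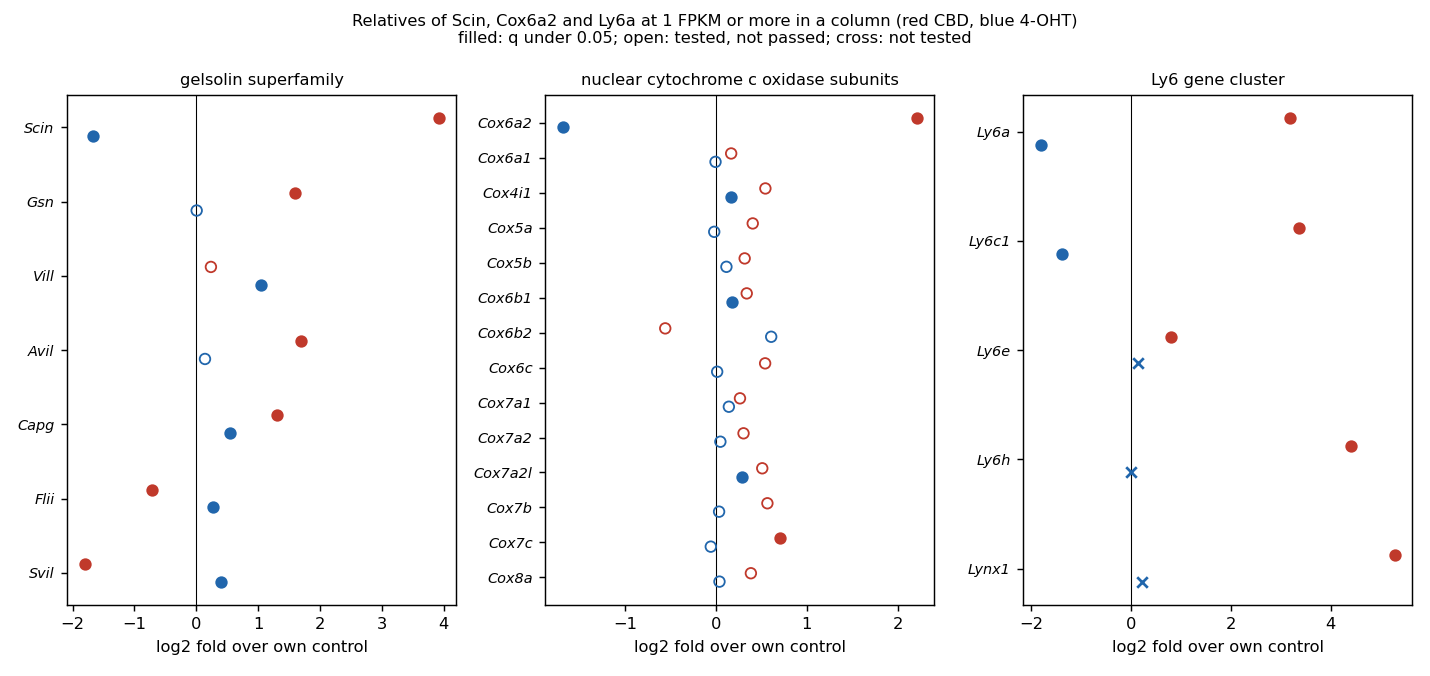
Log2 fold over the own control with CBD (red) and 4-OHT (blue) for Scin, Cox6a2 and Ly6a (top rows) and those listed relatives that reach 1 FPKM in a column; filled points have a q under 0.05, open points were tested and did not pass, and crosses mark no test result. Ly6c1 is the only relative shown with a filled red point above 0 and a filled blue point below 0.

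Ly6a is used as a stem cell marker, and but of 12 other tested stem and progenitor markers none rose with CBD and 1 fell, Myb, from 107 to 65.5 FPKM. With 4-OHT 4 rose and 2 fell, among them Meis1, from 0.591 to 2.14 FPKM, Erg, from 4.80 to 8.18, and Kit, from 95.6 to 78.8. In the control of the CBD table Meis1 was at 5.19 FPKM and Erg at 8.87, both above their 4-OHT values. The direction for Meis1 and Erg thus depended on the control used. Kit was at 85.0 FPKM there, so its 4-OHT value lay below both controls. Of all tested genes 18.4% rose and 7.74% fell with CBD, and 27.2% rose and 16.9% fell with 4-OHT. Their sum was 444, 374, 369 and 359 FPKM, with Hoxa9 listed at 0 in all 4 columns. Of 31 tested interferon response genes 16 rose and none fell with CBD, with a median log2 fold of 1.19, against 18.4% higher and 7.74% lower among all tested genes. Of 27 tested with 4-OHT 14 rose and 2 fell, with a median of 0.31, against 27.2% higher and 16.9% lower among all. Of these 14, only Irf7, Irf9, Stat2 and Dhx58 also had 4-OHT above the control of the CBD table. Psmb9, for one, was at 54.9 FPKM with 4-OHT beside 119 in that control. The antiviral gene Rsad2 rose with CBD from 0.167 to 2.92 FPKM, and it alone of the list was also called lower with 4-OHT. The interferon-induced GTPase gene Gbp2 rose with CBD from 0.544 to 4.67 FPKM and Ifit1 from 0.323 to 1.99. Irf7, a regulator of type I interferon genes, rose with 4-OHT from 0.891 to 2.14 FPKM, where Ly6a fell.

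Plac8 has few relatives and none was measurable: Plac8l1 was at most 0.0765 FPKM and Cnfn is listed at 0 in all 4 columns, and neither was tested. Placental trophoblast markers were absent too, with all 7 under 1 FPKM and sums of 0, 0, 0.0695 and 0.0750 FPKM. Neutrophil markers were sparse, with sums of 1.93, 8.10, 0.856 and 0.639 FPKM. None of the 2 tested with CBD and the 1 tested with 4-OHT was called. Of 11 tested monocyte and macrophage markers 5 rose with CBD and none fell (18.4% and 7.74% of all), led by C1qa, from 0.0284 to 5.18 FPKM, Ctss, from 0.0219 to 4.35, and Csf1r, from 0.0102 to 2.16. Their sum was 12.1, 44.3, 9.95 and 9.40 FPKM. With 4-OHT, 1 of 4 tested rose, Cx3cr1, and 1 fell, Ccr2 (27.2% and 16.9% of all). The chemokine receptor gene Ccr2 fell from 6.15 to 4.49 FPKM, and had risen with CBD from 8.43 to 19.3. The lymphocyte list was under 1 FPKM for all 12 genes in every column.

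Of 12 tested mast cell and basophil markers, 4 rose and 1 fell with CBD (18.4% and 7.74% of all tested genes), and 3 rose and 7 fell with 4-OHT (27.2% and 16.9% of all). Their median log2 folds were 0.79 and −0.72. Their sum was 830, 1766, 694 and 538 FPKM, and 4 of the 12 (Cpa3, Cma1, Mcpt8 and Fcer1a) were called higher with CBD and lower with 4-OHT, as were 1.89% of all genes. Cpa3, Cma1 and Mcpt8 had 4-OHT below both controls. Fcer1a did not, at 53.2 FPKM with 4-OHT beside 52.4 in the control of the CBD table. Cpa3, the mast cell carboxypeptidase gene, was at 71.9, 658, 148 and 48.2 FPKM. Tpsb2, a mast cell tryptase gene, fell with 4-OHT from 4.24 to 1.41 FPKM, beside 1.40 in the control of the CBD table. Other genes of the list did not follow that order: Hdc, the histamine-forming enzyme gene, was at 294, 102, 128 and 160 FPKM, and Ms4a2, the beta chain of the IgE receptor, at 173, 249, 95.7 and 109. The part of such cells or of their program in the values of the 4 genes was not tested.

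Marker lists of other tissues were examined as well. Shares of all tested genes for comparison are 18.4% higher and 7.74% lower with CBD, and 27.2% higher and 16.9% lower with 4-OHT. Of 12 tested neuron markers 10 rose with CBD, and the sum of the list was 18.4, 160, 10.6 and 15.03 FPKM. Of 7 oligodendrocyte markers 6 rose, of 6 astrocyte markers 4, and of 5 tested choroid plexus markers 2, with none falling in these lists. All 7 oligodendrocyte and all 6 astrocyte markers had CBD above both controls, as did 42.7% of genes tested in both tables. Some of the uncalled ones are listed at 0 in their own control. Of 9 tested endothelial markers 3 rose, with sums of 3.72, 13.0, 6.86 and 3.73 FPKM, and Cldn5, of the blood-brain barrier, was at 4.31 FPKM with CBD, did not pass the test and was 0 elsewhere. With 4-OHT 2 of 4 tested endothelial markers fell, Ly6c1 and Eng, the latter from 5.18 to 2.31 FPKM. Of 12 tested erythroid markers 3 rose and 3 fell with CBD, and 1 rose and 5 fell with 4-OHT. The 1 that rose with 4-OHT was the Hba-a2 entry, from 38.0 to 53.4 FPKM. A more abundant joint entry, Hba-a1,Hba-a2, was not matched by the list. At 1211, 5059, 1423 and 1019 FPKM, that joint entry was called higher with CBD and lower with 4-OHT and kept both directions against both controls. Of 4 tested dendritic cell markers 1 rose with CBD and of 3 tested with 4-OHT 2 rose. In both controls 11 of 12 neuron markers were under 1 FPKM, and all 4 genes were at 1.93 FPKM or more. Control levels do not give the part of other tissues in the CBD values of Scin, Cox6a2, Ly6a and Plac8. That part was not tested.

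The genes most like each of the 4 in pattern were found by the distance between log2(FPKM + 0.1) values over the 4 columns, each gene centred on its own mean, among 9324 genes tested in both tables and at 1 FPKM or more throughout. A small distance means a like profile over 4 group values and no more. Nearest to Ly6a was the mast cell gene Cpa3, at a distance of 0.212, followed by Gzmb, which encodes granzyme B, at 0.483 and the mast cell chymase gene Cma1 at 0.492. Gzmb was at 13.04, 87.2, 25.3 and 10.05 FPKM and Cma1 at 34.5, 211, 66.3 and 24.2 FPKM. All 3 had, like Ly6a, a higher control in the 4-OHT table than in the CBD table.

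Nearest to Scin was Cd53, a tetraspanin gene of leukocytes, at a distance of 0.425 with 11.7, 204, 10.3 and 4.69 FPKM. Cyp11a1, the enzyme that starts steroid synthesis from cholesterol, followed at 0.786 with 20.7, 324, 15.9 and 10.7 FPKM, and Ifitm1, an interferon-induced membrane protein gene, at 0.806 with 8.01, 115, 13.4 and 4.64 FPKM. All 3 rose with CBD and fell with 4-OHT, and all 3 kept both directions against both controls. Nearest to Plac8 were Fxyd5, a regulator of the sodium pump, at 0.387, Gp49a, a leukocyte receptor gene, at 0.478 and Stap1, a signalling adaptor gene, at 0.645. Of these, Fxyd5 was called in both directions, at 17.0, 96.9, 6.26 and 4.46 FPKM, while Gp49a and Stap1 were not called with 4-OHT, and Stap1 not with CBD.

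Cox6a2 had no close match. Its nearest entries were Hist2h2aa1,Hist2h2aa2 at 1.47 and Hist2h2aa2 at 1.57, histone genes that are near-identical copies and share reads, and Serpinb1a, a protease inhibitor gene of leukocytes, at 1.499. Serpinb1a was at 49.3, 205, 8.07 and 8.05 FPKM, with the control difference of Cox6a2 and no call with 4-OHT. The search cannot return a gene that goes under 1 FPKM with 4-OHT, as Cox6a2 does. Between the 4 genes themselves the distance ran from 1.41 for Scin and Plac8 to 3.41 for Cox6a2 and Ly6a. Each of the 4 had its 3 nearest genes outside the group. The gap was smallest for Cox6a2, whose nearest entry lay at 1.47 and Plac8 at 2.01.

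**Figure D5:**
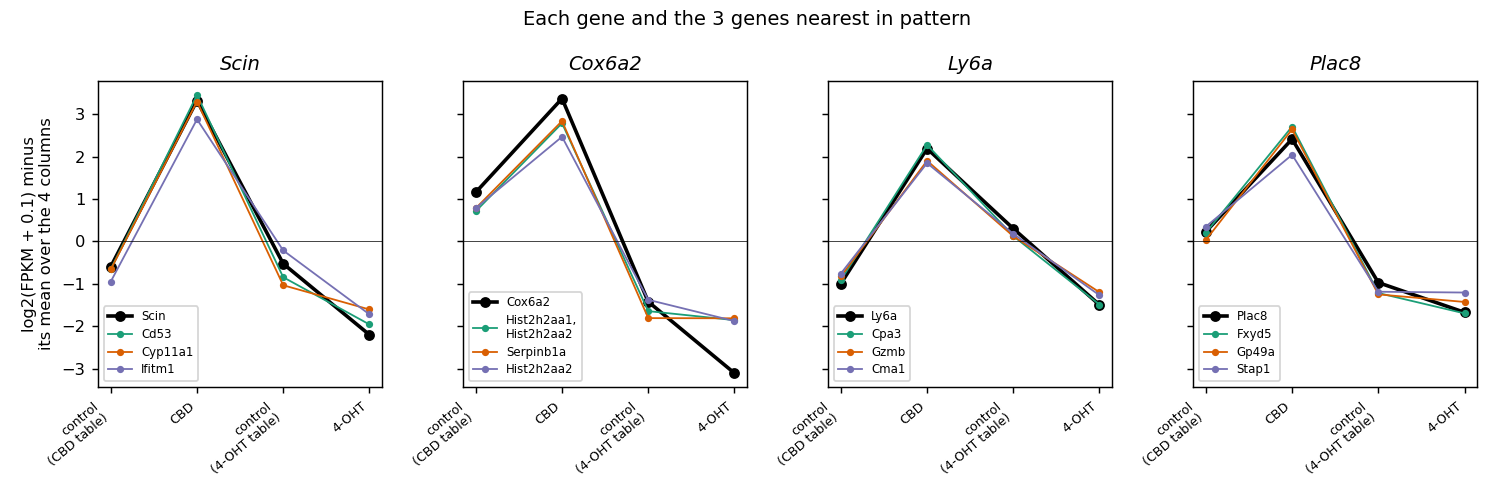
Values of log2(FPKM + 0.1) minus the gene's mean over the 4 columns, for each of the 4 genes (black) and the 3 genes nearest in pattern (colours). The coloured lines of Ly6a run within a distance of 0.492 of it, while those of Cox6a2 end well above it in the 4-OHT column.

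The 4 genes lie on 4 chromosomes, in mm9 Scin on chromosome 12 from 40786358 to 40860815, Ly6a on chromosome 15 from 74825307 to 74828318 and Plac8 on chromosome 5 from 100982752 to 101001224. Of 24 genes that flank the 4, 3 on each side, 17 were tested with CBD. Of these 7 rose and none fell, against 18.4% and 7.74% of all tested genes. Among the 7, Etv1, Dgkb, Dock4 and Itgam were at no more than 0.0461 FPKM in their control. With CBD they reached 1.42, 5.49, 1.41 and 0.382 FPKM. Etv1 and Dgkb lie 1191556 and 1426361 bases from Scin. With 4-OHT 10 of the 24 were tested, and 1 rose and 5 fell, against 27.2% and 16.9% of all. Ly6c1 was the 1 flanking gene called in both directions, as 1.89% of all genes were. Arl4a, a small GTPase gene 21784 bases from Scin, rose with CBD from 12.5 to 21.6 FPKM and stood at 13.2 and 13.3 FPKM in the 4-OHT table. Beside Plac8, the signalosome subunit gene Cops4, 5931 bases away, was at 66.5, 70.7, 103 and 88.4 FPKM, and the ubiquinone synthesis gene Coq2 at 24.8, 30.5, 35.8 and 29.5 FPKM. Cops4, Coq2 and Sec31a, a vesicle coat gene, fell with 4-OHT and were not called with CBD. Armc5, next to Cox6a2 and Itgad, fell with 4-OHT from 9.66 to 8.41 FPKM.

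Id1 fell with 4-OHT from 15.4 to 0.741 FPKM. With CBD it was at 11.95 FPKM beside a control of 34.2 FPKM, and the authors' deposited table gives q = 0.133 for that difference. The controls of Id1 were themselves apart, at 34.2 FPKM in the CBD table and 15.4 FPKM in the 4-OHT table. Its CBD value lay below both, without a call, and its 4-OHT value lay below both as well. The part of Id1 in the values of the 4 genes was not tested. The longest annotated transcripts are 680 bp for Cox6a2, 955 for Ly6a, 1224 for Plac8 and 2995 for Scin, against a median of 3268 bp over genes at 1 FPKM or more in all columns. With the median of genes of like length subtracted, the log2 folds with CBD were 1.72, 2.74, 1.79 and 3.85 in place of 2.21, 3.19, 2.18 and 3.92.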

How the data were processed

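The submitters' processing notes name Bowtie 0.12.2, the mm9 build and Cuffdiff (version, settings and annotation not given in the sources used here). Both deposited tables, 2 in all, hold FPKM for control and treated, 1 value per group, computed by the authors. The authors' p-value and q-value are deposited beside them, and the authors' log2 column was not used. Tested genes are those with status OK (13751 with CBD, 11232 with 4-OHT, 10867 in both). A q under 0.05 marks a called gene, and no test was added. Log2 folds use a pseudocount of 0.1 FPKM. Positions in mm9 were taken from the tables and made 1-based. Transcript lengths and shared stretches of 36 bases come from GENCODE (GRCm38), which matched 89.3% of genes by symbol; length trends are medians of about 500 genes. Distances and length trends were tested on simulated data. Named genes are the 4 genes, Id1, relatives at 1 FPKM or more, the 3 nearest in pattern, 3 flanking on each side, up to 3 called per other list, and rank neighbours, without predicted genes and small RNAs; Lrrn3, Hdc, Ms4a2, Cldn5 and some genes listed near 0 were chosen after their values were seen. Members and lists were chosen with earlier results of these data known. Scripts ran in Python 3.11.15 with pandas 2.3.3, NumPy 2.4.6 and matplotlib 3.10.9. Alternatives were other q, FPKM and fold minimums, pseudocounts, column scaling and length.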

Additional observations from a re-analysis of the deposited data

How the results depend on the processing

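No paired analysis was possible because the tables hold 1 value per group, and for the same reason no replicate could be left out. With columns scaled to the same median, or with a minimum of 1.5-fold, the number of the 4 genes beyond both controls was recomputed: CBD stayed above both controls for all 4 in both settings, and 4-OHT below both for all 4 when scaled and for 3 at 1.5-fold, without Ly6a. The 205 genes called in both directions became 105 at a q of 0.01, 15 at 2-fold and 86 beyond both controls, the last a setting added after the data were seen. Calls with CBD went from 3598 to 2044 at 1 FPKM or more in both controls, and calls with 4-OHT from 4951 to 297 at 2-fold. The median of the Ly6 cluster, Ly6a included, was 3.19 with CBD, 1.61 with a pseudocount of 1 FPKM and 1.99 at 1 FPKM or more in both controls; with 4-OHT it was −1.39, and −0.53 with a pseudocount of 1 FPKM. The oxidase subunit median with 4-OHT, 0.044, became −0.006 with scaling and −0.004 with the length trend removed. Of 80 recomputed log2 differences of the 4 genes, 78 moved by less than 1.5-fold and none changed sign; Cox6a2 with 4-OHT went from −1.68 to −0.94 with a pseudocount of 1 FPKM, and from −4.27 to −3.09 against the other control. By distance over the 2 own-control folds alone, the nearest genes were shared in 3 of 3 cases for Ly6a, 2 of 3 for Scin and 0 of 3 for Cox6a2 and Plac8. The cause of these shifts was not tested.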
